A study of Homo sapiens with 4 samples.

Results

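Transcripts of 10 genes of the BCL2 family were followed in U2OS cells, an established human osteosarcoma line, after knockdown of PURB, a single-stranded nucleic acid binding protein. The 10 genes were taken by symbol, for their place in the pathway and with earlier results of these data known, and all were found among the 39519 genes of the deposited table. They were taken in their roles as effectors (BAX and BAK1), guardians (BCL2, BCL2L1 and MCL1) and BH3-only genes (BBC3, PMAIP1, BCL2L11, BID and BAD). There were 2 sh-PURB libraries, whose cells carried an inducible short hairpin RNA against PURB and were given doxycycline (5.0 µg/ml) over 72 h. They were set against 2 sh-NC libraries, from cells with a control hairpin that received DMSO. All cells were of this 1 line. The knockdown always came with doxycycline and the control always with DMSO, so hairpin and drug cannot be told apart. The labels do not say whether the libraries of a group came from separate cultures or whether both sh-PURB libraries carried the same hairpin, so p-values here reflect the spread among these libraries alone, and that spread may be technical.

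The BCL2 family decides whether the outer membrane of the mitochondrion stays closed during stress. BAX and BAK1 form the pores that release cytochrome c, the guardians bind and restrain them, and BH3-only proteins either occupy the guardians or activate the effectors directly. Several of the genes, among them BAX, BBC3 and PMAIP1, are textbook targets of p53, and the study's title concerns activation of promoters by p53 together with PURB and the long noncoding RNA HOTAIR. Much of the control of the family lies beyond mRNA, in phosphorylation, cleavage, splicing and protein turnover, which TPM of whole genes does not measure.

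The family shares the BH3 motif, a short helix with a leucine and, 4 residues on, a small residue followed by aspartate, and the coding stretch of that motif is shown for each member because it is what defines the group. The stretches are 30 bases of GENCODE transcripts on GRCh38, read 5′ to 3′ along the mRNA. Capitals mark the codons of the leucine and of the small residue with its aspartate.
BAX: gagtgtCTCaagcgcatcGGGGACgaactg
BAK1: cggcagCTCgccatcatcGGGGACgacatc
BCL2: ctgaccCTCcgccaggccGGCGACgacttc
BCL2L1: caagcgCTGagggaggcaGGCGACgagttt
MCL1: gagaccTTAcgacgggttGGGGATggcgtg
BBC3: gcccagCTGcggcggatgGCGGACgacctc
PMAIP1: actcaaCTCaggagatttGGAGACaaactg
BCL2L11: caagagTTGcggcgtattGGAGACgagttt
BID: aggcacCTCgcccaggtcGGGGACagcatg
BAD: cgcgagCTCcggaggatgAGTGACgagttt
In 8 of the 10 stretches the small residue is glycine, and in BBC3 it is alanine and in BAD serine. The search of the coding sequence gave 1 match in each gene except BID, which had 2, and the match shown for BID is the one at the known BH3 position. BAX and BAD have their stretches at chr19:48955781-48955810 on the plus strand and chr11:64271628-64271657 on the minus strand. Proteins of the chosen transcripts ran from 54 residues in PMAIP1 to 350 in MCL1. The annotation lists 25 transcripts for BCL2L11, 15 for BID and 9 for BCL2L1. The deposited values are 1 per gene, so the long and short forms of BCL2L1 or BCL2L11, which differ in function, cannot be separated.

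The values are TPM, a share of all transcripts scaled for length, from which read numbers cannot be recovered, and the depth of the libraries is therefore unknown. Each library had 22822 to 24156 genes with a value over 0. Noncoding structured RNAs (RMRP, RPPH1, RN7SK, RN7SL1 and RN7SL2) accounted for 63.2% to 65.2% of TPM in sh-PURB and 59.4% to 62.2% in sh-NC libraries, and protein-coding genes took 25.3% to 25.6% in sh-PURB and 25.8% to 26.9% in sh-NC libraries. The part of this difference in the members' values was not tested. Of 8 bone and mesenchymal markers, VIM, COL1A1 and RUNX2 were above 1 TPM in every library, IBSP was at 0 in all 4, and SP7, ALPL, BGLAP and COL1A2 stayed at 0.509 TPM or less. Of the epithelial markers EPCAM reached at most 2.44 TPM and KRT14 2.4 TPM, and of the blood markers PTPRC reached 1.63 TPM and the others at most 0.126 TPM. PURB, the target of the hairpin, had 2.46 and 2.69 TPM in the sh-PURB libraries, against 5.29 and 6.55 TPM in the sh-NC libraries, a ratio of 0.435. In the limma fit of 14269 genes its log2 difference was -0.95 with an adjusted p of 0.102, and an exact two-sided permutation test gave 0.333, the smallest that 2 libraries against 2 allow. In bulk RNA, fewer cells with a transcript and less of it per cell cannot be told apart.

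None of the 10 members passed the threshold. Differences were taken on the log2(TPM + 1) scale, sh-PURB minus sh-NC, and limma called 0 of the 10 members at an adjusted p under 0.05, where 0.287% of all tested genes were called. Those were 12 higher genes (0.0841%) and 29 lower ones (0.203%), and 99 higher and 77 lower with TPM recomputed without the most abundant and mitochondrial RNAs. The adjusted p-values of the members ran from 0.252 for BCL2L1 to 0.996 for BID. At an unadjusted limma p under 0.05, 2 of the 10 members were higher in sh-PURB, BCL2L1 and BAX, beside 5.77% of all tested genes, and 0 were lower, beside 9.53%. BAX was not under that p with any single library left out, and BCL2L1 was under it only with sh-PURB replicate 2 or sh-NC replicate 1 left out. With sh-PURB replicate 1 left out, the members under it were BCL2L11, higher, and PMAIP1, lower. With sh-NC replicate 1 left out MCL1 was also under it, lower, and with sh-NC replicate 2 left out no member was. The groups did not overlap in 6 of the 10 members, beside 47.9% of all tested genes. In 4 of them, BAX, BCL2, BCL2L1 and BCL2L11, the sh-PURB values were the higher ones, which held for 18.6% of all tested genes. In PMAIP1 and BAD they were the lower ones, where 29.3% of all tested genes did the same. All 10 members met the filter of 1 TPM in at least 2 libraries, but BCL2 met it only through the sh-PURB libraries, so its place among the higher genes was partly fixed by the filter. The median log2 difference of the members was 0.13 and that of all tested genes -0.06.

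**Figure D1:**
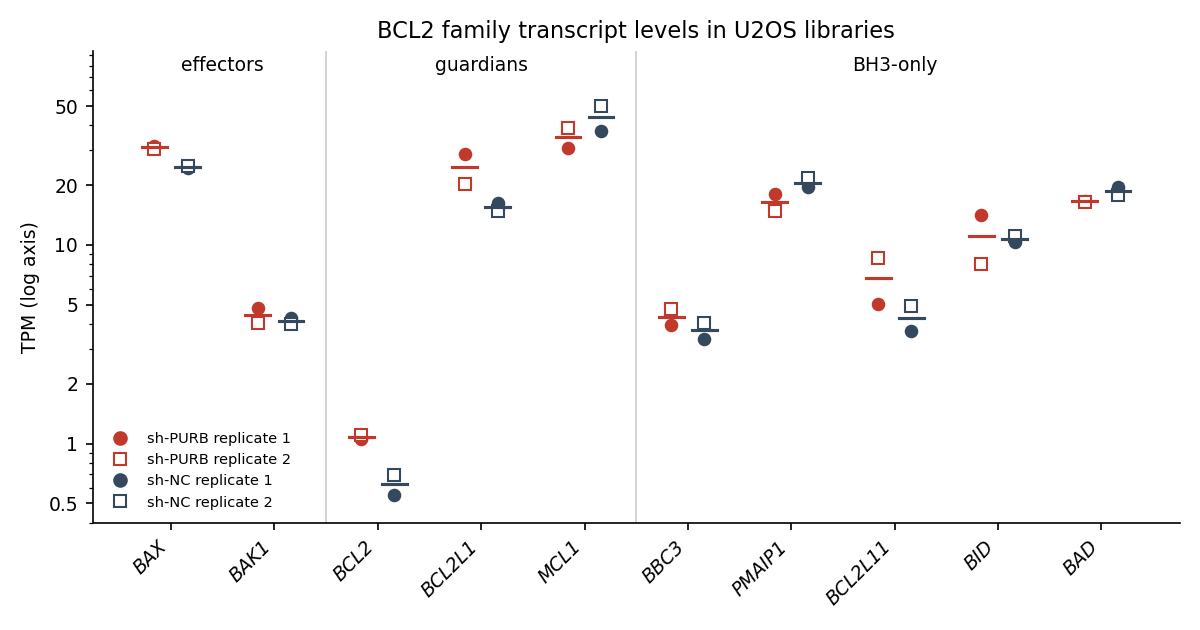
TPM of the 10 members (log axis) in each library, with sh-PURB in red left of sh-NC in dark blue, filled circles for replicate 1, open squares for replicate 2 and lines for the group means. The sh-PURB points of BAX and BCL2L1 all stand above their sh-NC points, MCL1 overlaps between the groups, and BCL2 lies near 1 TPM or below in all 4 libraries.

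BAX and BAK1 are the effectors, which oligomerise into pores in the outer membrane. BAX (chr19:48954815-48961798, plus strand) had 31.5 and 30.4 TPM in the sh-PURB libraries, against 24.4 and 25.1 TPM in the sh-NC libraries. The replicates of each group were close together and the groups did not overlap, with means of 31.0 ± 0.740 TPM in sh-PURB and 24.8 ± 0.533 TPM in sh-NC (SD, n = 2 each) and a ratio of 1.25. The log2 difference was 0.31 with a standard error of 0.103 (limma unadjusted p = 0.0306, adjusted p = 0.269). Its size exceeded that of 68.1% of all tested genes, so a difference of this size was common in these libraries. BAK1 (chr6:33572547-33580293, minus strand) had 4.84 and 4.05 TPM in sh-PURB and 4.30 and 4.02 TPM in sh-NC libraries. The sh-PURB replicates of BAK1 enclosed the value of 1 sh-NC library, and the log2 difference was 0.08 with a 95% interval of -0.35 to 0.50 (limma adjusted p = 0.869), which does not exclude a change as large as that of BAX. In all 4 libraries BAX stood well above BAK1, and 91 bases of BAK1 exons are shared with the pseudogene GGNBP1 on the other strand, which stood at 1.38 TPM or less.

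No guardian passed the threshold. BCL2L1 (chr20:31664452-31723989, minus strand), which encodes BCL-XL and its short pro-apoptotic form, had 28.8 and 20.3 TPM in the sh-PURB libraries, against 16.2 and 14.9 TPM in the sh-NC libraries. Both sh-PURB libraries lay above both controls, but sh-PURB replicate 1 stood far above replicate 2. The means were 24.5 ± 6.07 TPM in sh-PURB and 15.5 ± 0.908 TPM in sh-NC (SD, n = 2 each), a ratio of 1.58. Its log2 difference of 0.61 (standard error 0.193, 95% interval 0.11 to 1.11) exceeded in size that of 88.4% of tested genes and had the smallest p of the 10 members (limma unadjusted p = 0.0261, adjusted p = 0.252). The difference was 0.36 with sh-PURB replicate 1 left out and 0.85 with sh-PURB replicate 2 left out. Exons of BCL2L1 share 1424 bases with ABALON on the other strand, which stood at 0.207 TPM or less.

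MCL1 (chr1:150574551-150579738, minus strand), the short-lived guardian that also depends on continuous synthesis, had the highest mean TPM of the members in both groups. It had 30.9 and 38.9 TPM in the sh-PURB libraries, against 37.5 and 50.2 TPM in the sh-NC libraries. The groups overlapped, since the higher sh-PURB library exceeded the lower sh-NC library, and in both groups replicate 2 was the higher one. The log2 difference was -0.32 with a 95% interval of -0.81 to 0.18 (limma adjusted p = 0.509). With sh-PURB replicate 1 left out it was -0.15, and it was -0.11 without sh-NC replicate 2 and -0.52 without sh-NC replicate 1.

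BCL2 (chr18:63123346-63320128, minus strand), the founding guardian of the family, was the lowest member. It had 1.06 and 1.10 TPM in the sh-PURB libraries, against 0.552 and 0.698 TPM in the sh-NC libraries. The groups did not overlap, and the mean level of BCL2 stood at percentile 0.729 of the tested genes. The log2 difference of 0.36 (95% interval -0.21 to 0.93, limma adjusted p = 0.512) is compressed by the pseudocount of 1 at this level, and it was 0.71 with a pseudocount of 0.1. With a ratio of 1.73, BCL2 had the largest ratio of means among the 10 members, at a level whose read number is unknown and after a filter that it met only through the sh-PURB libraries.

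**Figure D2:**
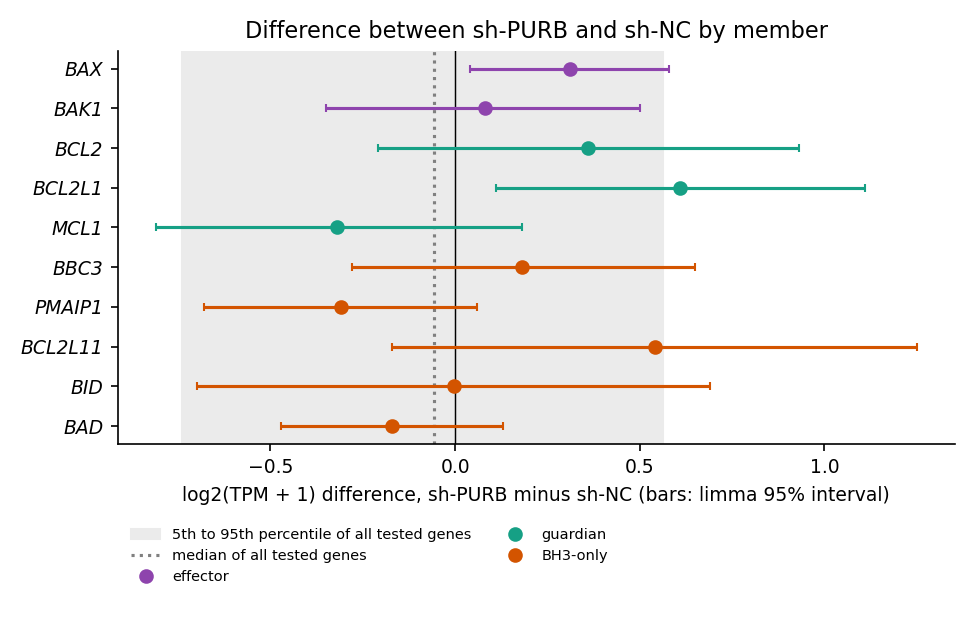
Differences in log2(TPM + 1), sh-PURB minus sh-NC, for the 10 members with limma 95% intervals, coloured by role. The intervals of BAX and BCL2L1 lie above 0 and the other 8 include 0; the grey band holds the 5th to 95th percentile of all tested genes (-0.74 to 0.56).

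Among the BH3-only genes, the p53 targets BBC3 and PMAIP1 had differences of opposite sign, and neither passed the threshold. BBC3 (chr19:47220822-47232766, minus strand), which encodes PUMA and binds all guardians, had 3.94 and 4.78 TPM in the sh-PURB libraries, against 3.38 and 4.06 TPM in the sh-NC libraries. The groups overlapped, and the log2 difference was 0.18 (95% interval -0.28 to 0.65, limma adjusted p = 0.690). PMAIP1 (chr18:59899948-59904306, plus strand), which encodes NOXA, the partner of MCL1, had 18 and 14.9 TPM in the sh-PURB libraries, against 19.5 and 21.7 TPM in the sh-NC libraries. Both sh-PURB libraries of PMAIP1 lay below both controls, with a ratio of 0.799 and a log2 difference of -0.31 (standard error 0.144, 95% interval -0.68 to 0.06, limma adjusted p = 0.394). BAX, BBC3 and PMAIP1 thus had differences of 0.31, 0.18 and -0.31, and none of the 3 passed the threshold.

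BCL2L11 (chr2:111119378-111168447, plus strand) encodes BIM, which engages every guardian and can activate BAX. It had 5.07 and 8.59 TPM in the sh-PURB libraries, against 3.67 and 4.92 TPM in the sh-NC libraries. The groups did not overlap, but sh-PURB replicate 1 was only just above the higher control. The ratio of means was 1.59 and the log2 difference 0.54 (standard error 0.275, 95% interval -0.17 to 1.25, limma adjusted p = 0.429), and the difference was 0.21 with sh-PURB replicate 2 left out and 0.87 when sh-PURB replicate 1 was left out. Exons of BCL2L11 share 727 bases with the noncoding gene MIR4435-2HG on the other strand, which stood at 64.9 and 64.7 TPM in sh-PURB and 53 and 50.7 TPM in sh-NC libraries. Whether strand was used in counting is not given in any source used here, so reads of both genes over those bases cannot be separated, and the part of MIR4435-2HG in the BCL2L11 difference was not tested.

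BID (chr22:17734138-17774770, minus strand), which caspase-8 cuts to carry death receptor signals to mitochondria, had 14.1 and 8.04 TPM in the sh-PURB libraries, against 10.3 and 11.1 TPM in the sh-NC libraries. The sh-PURB replicates lay on either side of both controls, the widest relative spread within sh-PURB together with that of BCL2L11. The log2 difference was -0.0040 with a 95% interval of -0.70 to 0.69 (limma adjusted p = 0.996), and relative to the median of all tested genes it was 0.05 as deposited and 0.03 to 0.08 with the 4 rescalings. BAD (chr11:64269830-64284704, minus strand), which survival kinases keep phosphorylated and bound to 14-3-3 proteins, had 16.7 and 16.5 TPM in the sh-PURB libraries, against 19.6 and 17.9 TPM in the sh-NC libraries. The groups of BAD did not overlap, with a ratio of 0.883 and a log2 difference of -0.17 (95% interval -0.47 to 0.13, limma adjusted p = 0.564). BAD shares 404 exon bases with GPR137 on the other strand, which had 12.3 and 14.2 TPM in sh-PURB and 11.2 and 11.6 TPM in sh-NC libraries, and the part of this in the BAD values was not tested.

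TPM is scaled to a fixed sum, so the scale itself was varied. The median difference of all tested genes was -0.06 as deposited and 0.06 with recomputed TPM. Relative to that median, the difference was 0.66 for BCL2L1 as deposited and 0.71 with recomputed TPM, and 0.37 and 0.41 for BAX. For MCL1 it was -0.26 and -0.23, for PMAIP1 -0.25 and -0.23, and for BAD -0.11 and -0.09. All 10 members had the same direction relative to that median under all 4 rescalings tried. A rescaling moves a gene and the median nearly together, so this agreement was largely fixed in advance and is no separate check.

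TPM is a level per transcript length, so levels can be set in order between genes. In the sh-PURB libraries the order of means was MCL1, BAX, BCL2L1, BAD, PMAIP1, BID, BCL2L11, BAK1, BBC3 and BCL2, at 34.9, 31.0, 24.5, 16.6, 16.5, 11.1, 6.83, 4.45, 4.36 and 1.08 TPM. Among sh-NC libraries the order was MCL1, BAX, PMAIP1, BAD, BCL2L1, BID, BCL2L11, BAK1, BBC3 and BCL2, at 43.9, 24.8, 20.6, 18.8, 15.5, 10.7, 4.30, 4.16, 3.72 and 0.625 TPM. BCL2L1 thus stood at rank 3 in sh-PURB and at rank 5 in sh-NC libraries, and the other changes of place are those of PMAIP1 and BAD, which both stood above BCL2L1 in sh-NC. Neighbours whose libraries overlapped were MCL1 and BAX, BAD and PMAIP1, BID and BCL2L11, and BAK1 and BBC3 in sh-PURB. In sh-NC they were PMAIP1 and BAD, BCL2L11 and BAK1, and BAK1 and BBC3. MCL1 was clear of BAX in the sh-NC libraries and overlapped with it in the sh-PURB libraries. The levels of BCL2L11 and BAD in these orders may include reads of MIR4435-2HG and GPR137 over shared exon bases, which was not tested.

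Ratios between members within a library do not depend on the TPM scale, and they are given as a description with no test. BCL2L1 over MCL1 was 0.932 and 0.520 in the sh-PURB libraries, against 0.431 and 0.297 in the sh-NC libraries. BCL2L1 and MCL1 were thus nearly level in sh-PURB replicate 1, while MCL1 led in the other 3 libraries. MCL1 over BAX was 0.982 and 1.28 in sh-PURB and 1.54 and 2.00 in sh-NC libraries, with no overlap. BCL2L1 over BAX was 0.916 and 0.665 in sh-PURB and 0.664 and 0.593 in sh-NC libraries, where sh-PURB replicate 2 and sh-NC replicate 1 were almost equal.

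Summed by role, the guardians overlapped between the groups, at 60.8 and 60.3 TPM in sh-PURB and 54.3 and 65.8 TPM in sh-NC libraries, and which of the groups was higher turned when sh-NC replicate 1 was left out. BCL2L1 was higher and MCL1 lower in mean TPM within that sum. The effectors summed to 36.3 and 34.5 TPM in sh-PURB and 28.7 and 29.2 TPM in sh-NC libraries, nearly all of it BAX. The BH3-only genes summed to 57.9 and 52.8 TPM in sh-PURB and 56.6 and 59.7 TPM in sh-NC libraries, which overlapped. Guardians over effectors came to 1.67 and 1.75 in sh-PURB and 1.89 and 2.26 in sh-NC libraries, lower in both sh-PURB libraries. BH3-only genes over guardians came to 0.951 and 0.876 in sh-PURB and 1.04 and 0.908 in sh-NC libraries, which overlapped. As a share of the 10 members, BCL2L1 made up 18.6% and 13.7% in sh-PURB and 11.6% and 9.63% in sh-NC libraries. The share of PMAIP1 was 11.6% and 10.1% in sh-PURB and 14% and 14% in sh-NC libraries. The shares of BAK1, BBC3 and BID overlapped between the groups, and those of the other members did not. Groups without overlap were common in these libraries, at 47.9% of all tested genes taken singly.

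**Figure D3:**
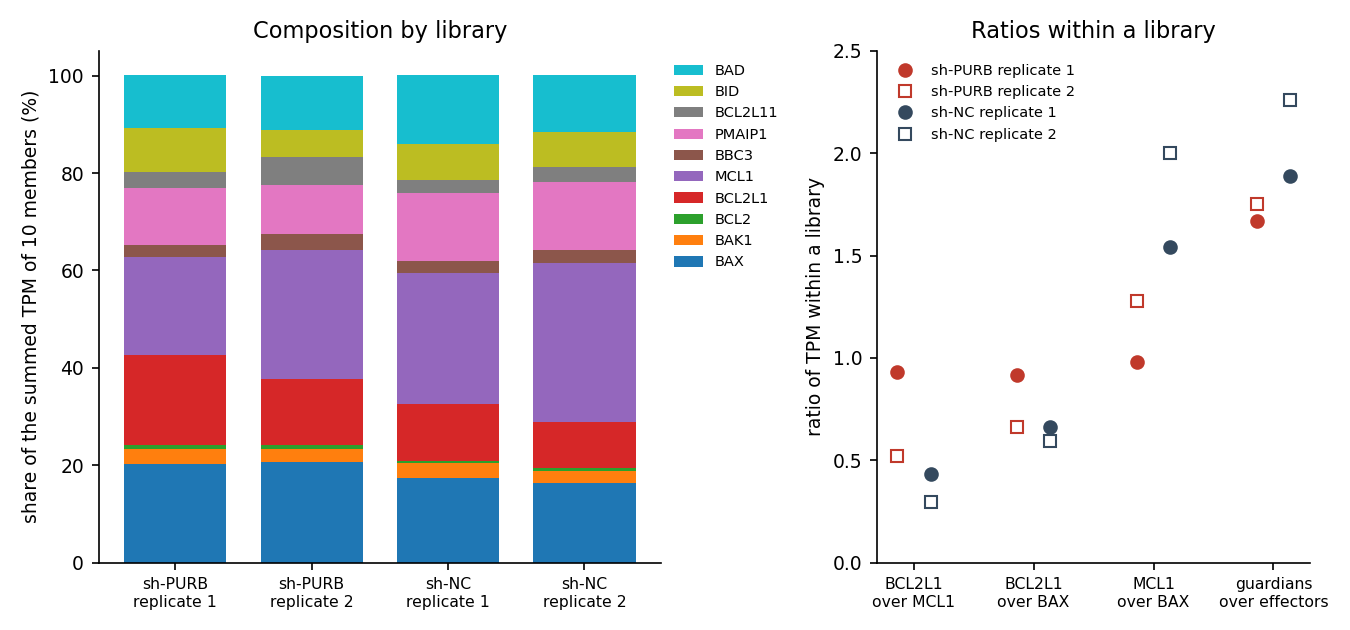
Left, share of each member in the summed TPM of the 10 members, by library, with the sh-PURB libraries first. Right, ratios of TPM within a library, sh-PURB in red left of sh-NC in dark blue; BCL2L1 over MCL1 is higher and MCL1 over BAX lower in both sh-PURB libraries, and BCL2L1 over BAX is nearly equal in sh-PURB replicate 2 (0.665) and sh-NC replicate 1 (0.664).

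Promoters of BAX and BCL2L1, the 2 members with the smallest p, were read from the RefSeq table (GRCh38.p14), which holds 250 bases before and 50 after each start and matched 9 of the 10 members in 15 windows, MCL1 being the other. They are shown with the purine-rich repeat GGNGGNGGN in capitals, on either strand, because PUR proteins are known to bind GGN repeats. Runs of capitals can hold overlapping matches.
BAX, chr19:48954625-48954924, plus strand: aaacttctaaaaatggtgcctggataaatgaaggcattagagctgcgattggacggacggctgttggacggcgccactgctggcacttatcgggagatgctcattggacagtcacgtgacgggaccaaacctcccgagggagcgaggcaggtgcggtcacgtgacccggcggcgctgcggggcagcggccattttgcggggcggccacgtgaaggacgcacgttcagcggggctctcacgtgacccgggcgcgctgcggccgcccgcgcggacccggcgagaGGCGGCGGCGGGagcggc
BCL2L1, chr20:31722819-31723118, minus strand: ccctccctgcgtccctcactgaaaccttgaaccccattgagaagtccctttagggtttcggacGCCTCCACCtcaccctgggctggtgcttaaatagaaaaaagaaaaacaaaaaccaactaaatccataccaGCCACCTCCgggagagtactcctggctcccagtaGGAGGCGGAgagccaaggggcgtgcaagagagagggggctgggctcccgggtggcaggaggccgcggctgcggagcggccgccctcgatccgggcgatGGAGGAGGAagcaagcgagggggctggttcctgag
The repeat matched 2 times in the BAX window and 4 times in this BCL2L1 window, which lies inside the gene as annotated. It matched 0 times in the other BCL2L1 window (chr20:31723914-31724213), which spans the annotated start of the gene and is not shown. At least 1 match was found in 12 of the 15 windows of members, BBC3 being the matched gene with none, and in 52.7% of all 35116 windows. The 2 BAD windows overlap, as do several of the 5 BID windows, so the same bases enter these counts of windows more than 1 time. The E-box CACGTG was in 4 of the 15 windows, of BAX, BBC3 and BID, beside 7.26% of all windows, and the BAX window held 4 copies. The p53 half-site consensus was found in 1 window, that of BAK1, beside 6.63% of all windows. The cAMP response element TGACGTCA and the C/EBP-ATF core TGATGCAA were in none of the 15 windows, beside 1.85% and 0.866% of all windows. The GC box GGGCGG was in 11 of the 15, beside 45% of all windows, and TATAAA in 1, the other BCL2L1 window, beside 11.5%. The repeat and the GC box are made mostly of G and C. The windows of members held from 48% (BBC3) to 78% (a BID window) G or C. Most of them were above the median of all windows, 58.7%. The part of base composition in these counts was not tested. Both strands were searched for each motif, and GC boxes can overlap the purine-rich repeat. Of the 5 BID windows 1 held none and the richest held 8. The repeat matched 7 times in the window of BCL2 and 3 times in that of BCL2L11, both higher in both sh-PURB libraries, and also 3 times in each BAD window and 1 time in that of PMAIP1, both lower. The matches are descriptions of letters in these windows, and binding was not measured.

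Genes with a profile most like that of BCL2L1, the member with the smallest p, were found by the distance between centred log2(TPM + 1) profiles over the 4 libraries. The 5 nearest were PEA15, SMIM30, ADK, SQLE and SLC7A2, at distances of 0.0392 to 0.0712. PEA15 had 40.1 and 28.9 TPM in the sh-PURB libraries, against 22.9 and 21.7 TPM in the sh-NC libraries, with sh-PURB replicate 1 highest as in BCL2L1. The log2 differences of the 5 ran from 0.56 to 0.65, and none passed the threshold (limma adjusted p = 0.235 to 0.287). Their likeness to BCL2L1 in direction, size and highest library follows from how they were chosen.

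Other genes of the pathway were then set beside the members. Of 13 other BCL2 family genes, 8 reached the filter, and BCL2L10 was listed at 0 in all 4 libraries, while BCL2A1, HRK, BCL2L14 and BCL2L15 stayed under the filter. Limma called 0 of the 8 at an adjusted p under 0.05, and without adjustment 0 were higher and 3 lower at p under 0.05, BNIP3L, BNIP3 and BIK, beside 9.53% of all tested genes. BNIP3L, a mitophagy receptor of the outer membrane, had 24.2 and 29 TPM in the sh-PURB libraries, against 51.0 and 52.6 TPM in the sh-NC libraries. Its log2 difference of -0.94 (standard error 0.126, limma adjusted p = 0.0691) exceeded in size that of every member, and it passed the threshold when protein-coding genes alone were fitted (adjusted p = 0.0133) and with a filter at 5 TPM (0.0472). Its relative BNIP3 had 9.81 and 8.36 TPM in sh-PURB and 13.3 and 17.0 TPM in sh-NC libraries (limma adjusted p = 0.177), and the named pseudogenes of BNIP3 averaged 4.41 TPM or less each. BIK, a BH3-only gene, had 1.10 and 1.08 TPM in sh-PURB and 2.02 and 1.90 TPM in sh-NC libraries (limma adjusted p = 0.320). The unadjusted limma p of BIK was 0.0476, and it was 0.0503 with a pseudocount of 0.5 and 0.0259 with protein-coding genes only. BOK, a relative of the effectors, had 12 and 15.3 TPM in sh-PURB and 18.1 and 15.3 TPM in sh-NC libraries (limma adjusted p = 0.512).

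Downstream of the pore, 14 genes of the apoptosome, the caspases and their inhibitors were tested and limma called 0. Without adjustment 0 of the 14 were higher and 2 lower at p under 0.05, beside 5.77% and 9.53% of all tested genes. The lower ones were XIAP and BIRC2, inhibitors of apoptosis, at ratios of 0.709 and 0.705 (limma adjusted p = 0.247 and 0.278). Their unadjusted limma p-values were 0.0897 and 0.0712 with median-ratio rescaling, and 0.0385 and 0.0318 with protein-coding genes only. BIRC3 stood at a ratio of 0.575 (limma adjusted p = 0.382). CYCS, cytochrome c, which BAX pores release, had 90.4 and 70.8 TPM in the sh-PURB libraries, against 64.9 and 60.0 TPM in the sh-NC libraries (limma adjusted p = 0.352), and each of its named pseudogenes in the table averaged 0.737 TPM or less. Of 5 outer membrane proteins limma called 0, and without adjustment 2 of the 5 were higher and 0 lower at p under 0.05, where the shares of all tested genes were again 5.77% and 9.53%. Those were TSPO, a cholesterol-binding protein, at a ratio of 1.5, and MTCH2, which serves as a receptor for cleaved BID, at 1.34 (limma adjusted p = 0.186 and 0.220). VDAC2, a channel that binds BAK1, and VDAC1 stood at 1.10 and 1.12 (limma adjusted p = 0.624 and 0.741).

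Of 15 regulators of the members, 14 were tested and limma called 0 (TP73 stayed under the filter). Without adjustment 0 of these 14 were higher and 1 lower at p under 0.05, a share of lower genes no larger than the 9.53% of all tested genes. The lower one was DYNLL2, a dynein light chain that holds the BH3-only protein BMF at the cytoskeleton, with 5.98 and 5.82 TPM in sh-PURB and 8.13 and 8.37 TPM in sh-NC libraries (limma adjusted p = 0.245). With median-ratio rescaling the unadjusted limma p of DYNLL2 was 0.0715, and with protein-coding genes only it was 0.0388. DYNLL1, which holds BIM, stood at a ratio of 0.894 (limma adjusted p = 0.457). FOXO3, a transcription factor that drives BCL2L11, stood at a ratio of 1.24 and BCAP31, a membrane protein of the endoplasmic reticulum cut by caspase-8, at 1.17 (limma adjusted p = 0.579 and 0.580). Over the 4 lists together, 41 genes were tested, with a median log2 difference of -0.02, beside 0.13 for the members.

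**Figure D4:**
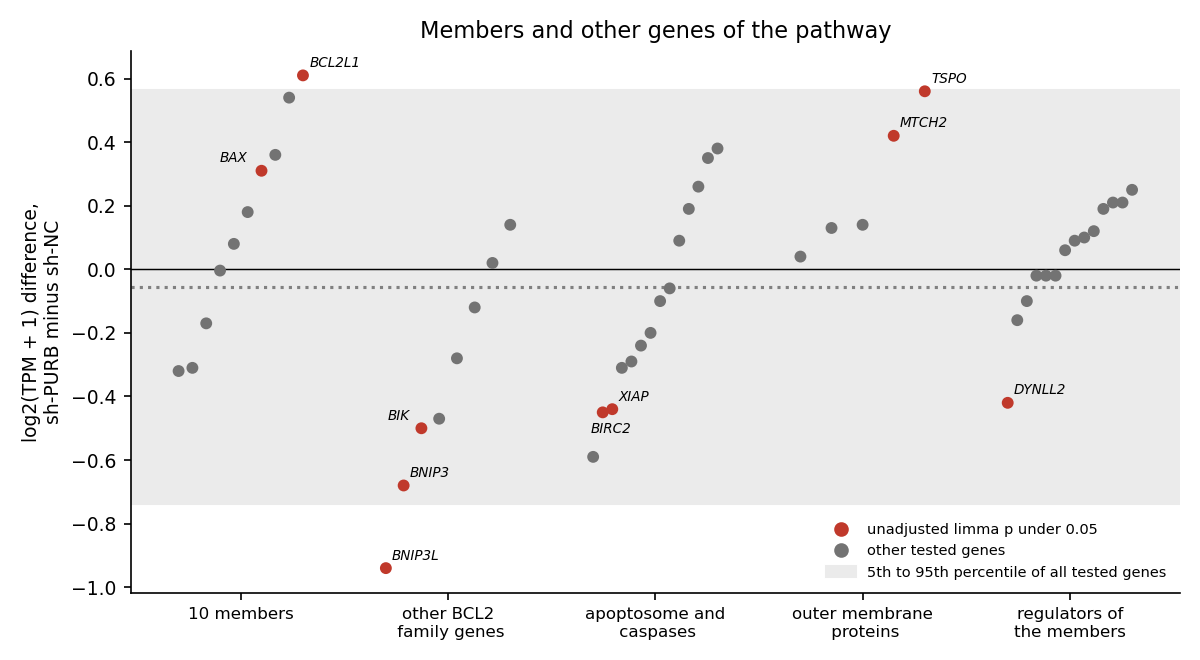
Differences in log2(TPM + 1), sh-PURB minus sh-NC, for the tested genes of the 10 members and of 4 other lists, 1 point a gene, ordered by size within a list; red marks an unadjusted limma p under 0.05. BCL2L1 and BAX are marked among the members, and BNIP3L lies lowest at -0.94.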

How the data were processed

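The libraries were rRNA-depleted TruSeq (Illumina) libraries of TRIzol RNA, per the labels' protocols. The authors deposited TPM per gene symbol. Kallisto 0.44.0, bcl2fastq 2.19, DESeq2 and sleuth are named in the submitters' processing notes, as are GRCm38 (mouse) and GRCh38, but their roles are not; annotation release and strand setting are not given in the sources used here. The 4 library files hold the same TPM as the table of all samples. A row with no name (0.921% to 1.66% of a library) was left out.

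Genes at 1 TPM or more in at least 2 libraries (14269) were fitted as log2(TPM + 1) in limma 3.58.1 (R 4.3.3) by group. The variance prior followed the mean level, and p-values were adjusted by Benjamini-Hochberg across these genes at 0.05. For low genes this scale gives smaller differences than the TPM ratio. The fit was tested on simulated data, where limma called 44.5% of 2-fold and 95.3% of 4-fold changes, with 4.49% false calls. The simulated noise was independent between libraries, with variances scattered around a smooth trend of level, much as limma assumes. Shared deviations of same-numbered libraries and the difference in structured RNAs were not simulated. These rates are therefore not shown to hold for the real libraries. The changed genes there were higher ones, so the levels of BCL2, BAK1, BBC3 and BCL2L11 were not covered. A gene short of the threshold is therefore not shown to be unchanged. Coordinates and transcripts came from GENCODE v29, promoters from RefSeq. Figures used Python 3.11.15 and matplotlib 3.10.9.

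The members and lists were chosen with earlier results of these data known. Named genes were the 10 members, PURB, the 4 genes of smallest p in each other list, genes listed at 0, and the 5 profiles nearest to that of the member with the smallest p. Cell type markers came from lists of their own. Genes named for shared exons, the structured RNAs and BCL2A1, HRK, BCL2L14, BCL2L15 and TP73 were named after their values were seen. Alternatives were quantile normalization, median-ratio rescaling, protein-coding genes only, TPM recomputed after removal of mitochondrial genes and RNAs above 1% of any library, pseudocounts of 0.1 and 0.5, filters of none and of 5 TPM, robust moderation, no trend, the replicate number as a block, and leaving out each library.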

Additional observations from a re-analysis of the deposited data

How the results depend on the processing

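No member was called under any of the 15 alternatives, and the lowest adjusted p was 0.118, for BCL2L1 among protein-coding genes. Of 145 values of single members, 138 had the same direction and side of the threshold. The filters, the replicate block, no trend and robust moderation leave a member's difference unchanged, so its direction could not turn in those settings. The groups of BAX, BCL2, BCL2L1, BCL2L11, PMAIP1 and BAD did not overlap. Their directions therefore could not turn with another pseudocount or with a single library left out. Much of the agreement in direction was thus fixed in advance. BCL2 gave no value with the filter at 5 TPM or without either sh-PURB library, and BAK1 and BBC3 none with that filter. BAK1 turned without sh-PURB replicate 1 (-0.03), and BID was 0.10 with median-ratio rescaling, 0.04 with quantile normalization, 0.14 with recomputed TPM and 0.04 with protein-coding genes only, and ran from -0.38 to 0.37 without single libraries. Relative to the median of all tested genes BID was positive as deposited and under each of these rescalings, which move a gene and the median nearly together. BAK1 ran from -0.03 to 0.18 and VDAC1 from -0.07 to 0.35 in those fits. Members higher at an unadjusted limma p under 0.05 (2) numbered 4 with recomputed TPM and with protein-coding genes, where BCL2L11 and BCL2 were added. They numbered 3 with median-ratio rescaling, quantile normalization and the replicate block, where BCL2L11 was added, and 1 without the trend. Members lower (0) numbered 1 with the replicate block, which was MCL1 (limma unadjusted p = 0.0249, limma adjusted p = 0.167), and 0 to 1 without single libraries. Among the other pathway genes 1 was called lower, BNIP3L, with the filter at 5 TPM and with protein-coding genes only. PURB was called among protein-coding genes (-1.07, adjusted p = 0.0379).

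Over all tested genes, the calls of 12 higher and 29 lower became 0 and 0 with a pseudocount of 0.1, with no filter and without the trend. They became 31 and 90 with the filter at 5 TPM, 32 and 52 with median-ratio rescaling, 45 and 73 with quantile normalization, 99 and 77 with recomputed TPM, 157 and 250 with protein-coding genes only, and 43 and 82 with robust moderation. Recomputed and protein-coding values are larger per gene, so the pseudocount and filter weigh less there. Without single libraries, calls ran from 0 to 87 higher and from 0 to 73 lower, with 0 and 0 when either sh-PURB library was left out, 58 and 73 without sh-NC replicate 1, and 87 and 68 without sh-NC replicate 2. A lone library was then assumed to vary like the other group. The cause of these shifts was not tested. With the replicate block they were 41 and 77. Deviations of same-numbered libraries correlated across genes (r = 0.193), but the labels do not say that a number marks a shared culture. The summed effectors moved from 0.29 to 0.40 and the summed BH3-only genes from -0.07 to 0.04 (log2) with median-ratio rescaling, which moved the median of all tested genes from -0.06 to 0.03. The sum of the guardians ran from -0.12 to 0.16 without single libraries. The 3 ratios recomputed (guardians over effectors, BCL2L1 over MCL1 and BCL2L1 over BAX) had the same sign in each of those. Their groups did not overlap, so that sign could not turn with a library left out, and the agreement is no check. Depth is unknown, so no limit can be set for BCL2 near 1 TPM.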
